A study of Mus musculus with 8 samples.

Results

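The 78 genes described here code for proteins of the mitochondrial ribosome and were chosen by symbol alone, as all rows whose name starts with Mrpl (49 genes, named for the large subunit) or Mrps (29 genes, named for the small subunit) followed by a digit, out of 24505 rows. All 78 passed the filter of at least 1 RPKM (reads per kilobase of gene and per unit of library size) in at least 2 libraries and so are among the 13428 genes tested. RNA was sequenced from a mouse embryonic stem cell line with a conditional allele of Ino80, the ATPase of a chromatin remodelling complex, after removal of ribosomal RNA and with ERCC spike-in RNA added to the lysate, per the labels' protocols. The 8 libraries make 4 groups of 2. Naive cells labelled knockout and naive wild-type cells were kept in LIF with the MEK inhibitor PD0325901 and the GSK3 inhibitor CHIR99021. Primed knockout cells and primed wild-type cells were kept in FGF2 and Activin A with XAV-939, an inhibitor of tankyrases. Cells were exposed to 100 nM 4-OHT over 2 days to delete the gene and grown on for 2 days. The sources used here do not give whether wild-type cells were exposed too. All 8 libraries carry 1 line name. The labels do not say whether a group's libraries are separate cultures. As deposited, p-values cover only the spread between libraries, taken from genes of like level, and this spread may be technical. Sequencing depth is unknown from these values.

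The mitochondrial ribosome translates the few messenger RNAs of mitochondrial DNA, which code for core subunits of the respiratory chain and ATP synthase. Its ribosomal RNAs come from mitochondrial DNA, whereas all of its proteins are encoded in the nucleus, made in the cytosol and imported. Many of these proteins descend from those of bacterial ribosomes, and others are found only in mitochondria. Some names mislead: the products of Mrps18a and Mrps30 sit in the large subunit, and the product of Mrps36 is now known as a component of the alpha-ketoglutarate dehydrogenase complex.

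Ino80 itself stood at 15.9 and 15.1 RPKM in the naive libraries labelled knockout, against 17.0 and 14.5 RPKM in naive wild type, and at 9.12 and 8.74 RPKM in primed knockout libraries, against 15.9 and 20.3 RPKM in primed wild type. It passed the test in the primed state (log2 difference -0.93 ± 0.18 SE, limma, Benjamini-Hochberg adjusted p = 2.0e-06), where the median of all genes tested was -0.53. With library medians set equal the primed difference was -0.24. After quantile and loess normalization it was -0.26 and -0.28, and it passed under each of these scalings. Ino80 did not pass in the naive state as deposited (-0.02 ± 0.18, limma adjusted p = 0.975), so of the naive libraries the word knockout gives their label. Loess normalization gave a naive call (-0.10). Of 5 pluripotency genes, Utf1 (0.82) and Sox2 (0.29) rose in the naive state. In the primed state Sox2 (0.35) and Pou5f1 (0.18) rose, and Nanog (-1.63) and Utf1 (-0.22) fell, with Pou5f1 between 559.6 and 694 RPKM in all 8 libraries. These calls are as deposited, where 59.3% of all genes tested fell in the primed state and 4.16% rose. After quantile normalization 3 of the 5 were higher and 1 lower in primed cells (39.4% and 34.6% of all genes). All 5 were higher in naive cells then (31.9%). The 6 naive-state markers summed to 761 to 774 RPKM in naive libraries labelled knockout and 702 to 800.5 in naive wild type. In primed knockout they summed to 2.4 to 2.68 and in primed wild type to 7.27 to 10.2. The 5 primed-state markers summed to 22.3 to 24.1, 18.7 to 23.5, 228 to 244 and 242 to 283 RPKM in these 4 groups. Of them Fgf5 rose (1.65) and Pou3f1 (-0.93) and Sox4 (-0.76) fell in the primed state as deposited. The 15 markers of differentiated lineages summed to 26.9 to 30.6, 20.1 to 33.9, 227 to 241 and 139 to 166 RPKM in the same 4 groups, with none at 0 in any group. In these groups 7, 6, 7 and 5 of the 15 lay under 1 RPKM in both libraries. Nes alone held 137 and 131 RPKM in primed knockout and 69.4 and 77.9 RPKM in primed wild type. Of the 11 differentiation markers that were tested, the mesoderm and endoderm factors T (3.43) and Eomes (1.80) and the neural filament gene Nes (0.86) rose in the primed state. The neural factors Pax6 (-2.34) and Sox1 (-1.98) and the collagen gene Col1a1 (-0.91) fell there. In the naive state Nes rose (0.60) and T fell (-0.88). After quantile normalization 5 of these 11 were higher and 2 lower in primed cells, and 3 higher and 3 lower in naive cells. The part of these markers in the results on mitochondrial ribosomal protein genes was not tested.

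The promoters are shown first because later results refer to the letters in them. RefSeq promoters (GRCm38.p6, 250 bases before to 50 after each start) were matched by symbol for 69 of the 78 genes. Those not matched are Mrpl4, Mrpl13, Mrpl15, Mrpl19, Mrpl38, Mrpl54, Mrps28, Mrps34 and Mrps35. On either strand, the core letters of an NRF1 site (GCGC, any base, then TGCGC) were in 18.8% of the 69, 10.5% of the promoters of genes tested and 4.78% of all 27025 promoters in the table. Those of an ETS site, CCGGAAG, were in 36.2%, 18.3% and 9.12%, and those of a YY1 site, AANATGGCG, in 15.9%, 5.37% and 2.51%. The other letters looked for were no more frequent in members than in genes tested. GGGCGG was in 49.3%, 65.9% and 35.9%, and CACGTG in 7.25%, 10.3% and 7.24%. CCAAT was in 39.1%, 39.4% and 37.9%, and TATAAA in 5.8%, 6.78% and 14.2%. These are descriptions of letters in a window of 300 bases, not of bound factors. The stretches of 100 bases before the start are given for the 5 members that were lower in both states under every setting run, on the strand of the gene, with NRF1 and ETS matches in capitals.
Mrpl9 (chr3:94443236-94443335, plus strand): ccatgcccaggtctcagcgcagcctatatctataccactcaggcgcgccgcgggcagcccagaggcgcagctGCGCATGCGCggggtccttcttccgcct
Mrpl32 (chr13:14613038-14613137, minus strand): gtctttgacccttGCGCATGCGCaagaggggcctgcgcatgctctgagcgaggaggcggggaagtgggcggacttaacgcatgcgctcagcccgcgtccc
Mrpl42 (chr10:95501950-95502049, minus strand): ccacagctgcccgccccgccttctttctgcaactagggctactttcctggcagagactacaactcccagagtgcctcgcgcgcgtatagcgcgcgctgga
Mrps5 (chr2:127587326-127587425, plus strand): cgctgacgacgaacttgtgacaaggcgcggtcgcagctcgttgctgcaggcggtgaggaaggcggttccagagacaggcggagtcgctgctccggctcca
Mrps27 (chr13:99344686-99344785, plus strand): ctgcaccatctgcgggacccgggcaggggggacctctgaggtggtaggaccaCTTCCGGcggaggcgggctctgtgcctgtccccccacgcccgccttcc

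The YY1 letters were in 11 members, of which 5 fell in both states. All 5 are among the 6 members printed here, which carry the form AAGATGGCG on their own strand just after the start. That form was chosen after the members' values were seen. Of the other 5, none of which fell in both states, Mrpl36 and Mrps11 carry it on the opposite strand and Mrpl27, Mrpl58 and Mrps30 carry other forms. The Mrps11 match reads AAGATGGCG on the strand of Mrpl46, the gene head to head with it, and lies after the Mrpl46 start. Mrpl46 fell in both states, but the match lies beyond its promoter window and was not counted for it. Capitals mark the match, the flanks are 10 bases, and the Mrps24 window ends with the table's sequence.
Mrpl35 (chr6:71823743-71823771, minus strand): ggcaggctgcAAGATGGCGgcttccatct
Mrpl37 (chr4:107066822-107066850, minus strand): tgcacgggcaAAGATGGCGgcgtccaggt
Mrpl42 (chr10:95501904-95501932, minus strand): agattgaagcAAGATGGCGagcgcgcggt
Mrps18a (chr17:46111005-46111033, plus strand): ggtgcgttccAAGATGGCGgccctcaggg
Mrps24 (chr11:5707652-5707675, minus strand): gcgccggcccAAGATGGCGtggtc
Mrps27 (chr13:99344790-99344818, plus strand): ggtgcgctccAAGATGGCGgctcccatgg

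In the naive state falls outnumbered rises among the members. Of the 78, 21 fell in the libraries labelled knockout and 1 rose (limma on log2(RPKM + 1), Benjamini-Hochberg adjusted p under 0.05), where 5.85% of all genes tested fell and 6.08% rose. The median difference over the 78 was -0.14, against 0.05 over all genes tested and 0.06 over the 1925 genes whose mean level lies in the members' interquartile range. By subunit name, 12 of 49 Mrpl and 9 of 29 Mrps genes fell. In 41 members both libraries labelled knockout lay below both wild-type libraries (21.0% of all genes), in 14 above (31.2%), and in 23 the groups overlapped. The naive median stayed negative under each other scaling tried, at -0.20 with the library medians set equal, -0.16 after quantile normalization and -0.17 after loess normalization within each state. Under these scalings 30, 41 and 42 members fell and 3, 8 and 7 rose, with 17.0%, 27.5% and 28.4% of all genes falling and 16.1%, 31.9% and 29.1% rising. Without either naive library labelled knockout 9 members were called lower, and without naive wild-type replicate 1 13 were.

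Together the 78 genes held 0.671% of the summed RPKM in each naive library labelled knockout, against 0.766% and 0.759% in naive wild type. This share does not change when a library is multiplied by a constant. In the primed state the share was 0.724% and 0.699% in primed knockout and 0.755% and 0.784% in wild type. The shares of both libraries labelled knockout lay below both wild-type shares in each state, but the primed difference, -0.11 on the log2 scale, turned to 0.04 after loess normalization. Summed Mrpl over summed Mrps RPKM was 2.04 and 2.05 in naive libraries labelled knockout, against 2.04 and 2.06 in naive wild type, and 2.19 and 2.16 in primed knockout, against 2.06 and 2.04 in primed wild type. The naive values overlapped, and the primed knockout values were the higher ones.

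**Figure D1:**
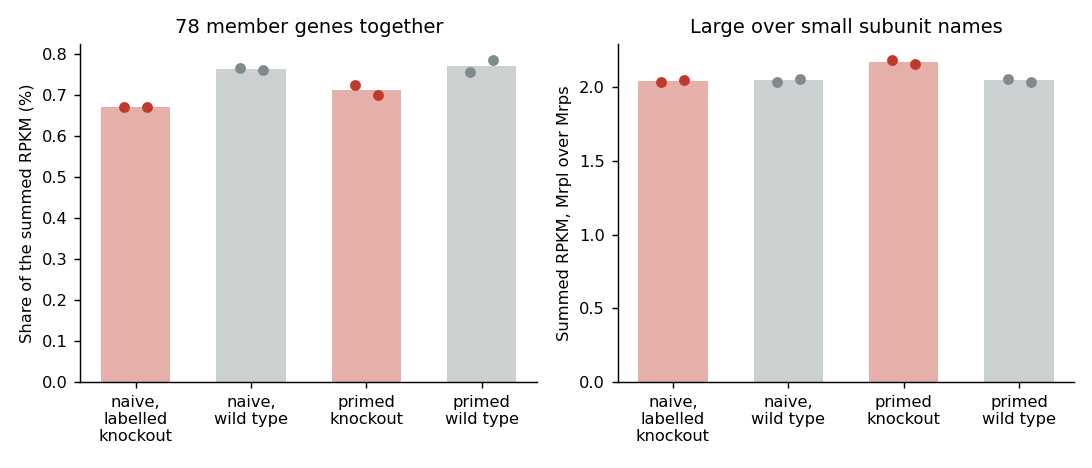
Left, share of each library's summed RPKM held by the 78 genes (percent); right, summed RPKM of Mrpl over Mrps genes; points are the 2 libraries of a group and bars their mean. Naive libraries labelled knockout sat at 0.671%, below 0.759% and 0.766% in wild type; the primed knockout shares, 0.699% and 0.724%, were also below wild type as deposited, a direction that turned after loess normalization.

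In the primed state 59 members fell and none rose, which has to be read against a library-wide shift, since 59.3% of all genes fell and 4.16% rose. At an unadjusted p under 0.05, limma called 61 lower and none higher. The median over the 78 was -0.59, against -0.53 over all genes and -0.43 over genes of like level. Both knockout libraries lay below both wild-type libraries in 66 members (76.4% of all genes), above them in none (6.77%), and overlapped with them in 12. By subunit name, 36 of 49 Mrpl and 23 of 29 Mrps genes fell. Setting the library medians equal shifted the median of all genes to 0.16 and that of the members to 0.10, with 13 members lower (23.6% of all genes) and 25 higher (41.6%), so the direction of the family turned with the scaling. After quantile normalization 36 were lower (34.6%) and 21 higher (39.4%), at a median of -0.10 against 0.03 over all genes. After loess normalization 40 were lower (36.5%) and 20 higher (37.0%), at a median of -0.12. Under all 4 scalings the members' primed median lay below that of genes of like level.

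**Figure D2:**
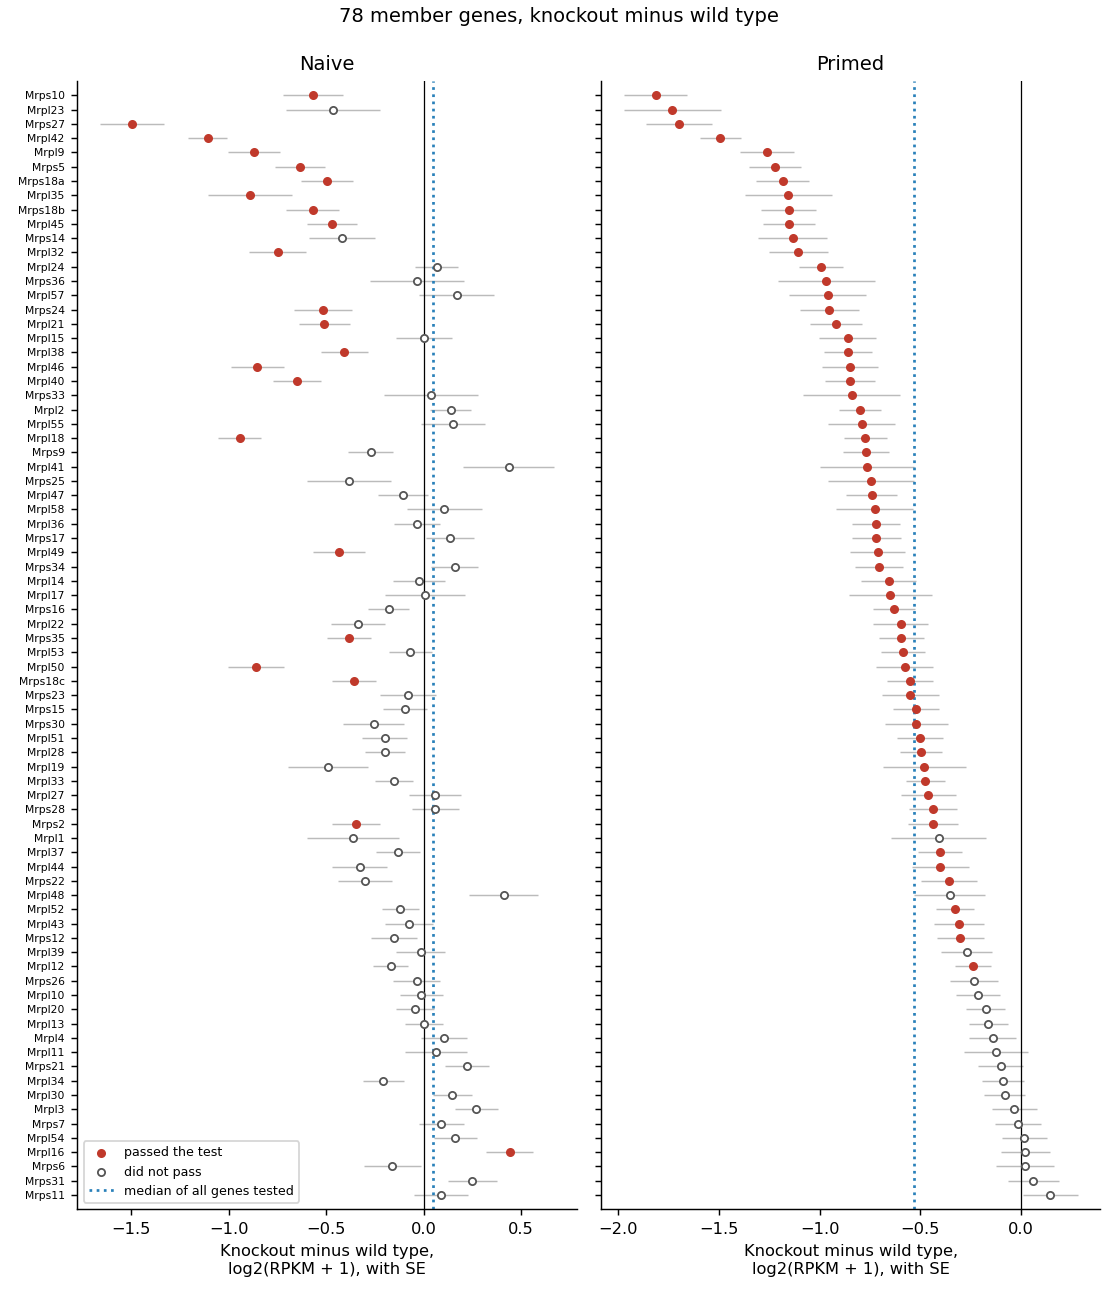
Log2 difference of each of the 78 genes, libraries labelled knockout minus wild type, in the naive state (left) and the primed state (right), with its SE from limma; filled points passed the test and the dotted line is the median of all genes tested. The naive median of all genes was 0.05 and the primed one -0.53, so the primed panel as a whole is shifted to lower values as deposited, and with library medians set equal the members' primed median was 0.10.

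All 21 members that fell in the naive state also fell in the primed state, which is 100% of the naive list and 35.6% of the primed one. Of all genes tested, 786 fell in the naive state, 7958 in the primed state and 628 (4.68%) in both. With median centring, quantile and loess normalization 40%, 63.4% and 66.7% of the members lower in naive cells were lower in both states. Of all genes tested that were lower in naive cells then, 1124 of 2289, 2116 of 3687 and 2226 of 3808 were lower in both. After quantile normalization 26 members were lower in both (15.8% of all genes) and 6 higher in both (19.2%), and after median centring and loess normalization 12 and 28 were lower in both (8.37% and 16.6%). A core of 10 members, Mrpl9, Mrpl32, Mrpl35, Mrpl42, Mrpl45, Mrps5, Mrps10, Mrps18a, Mrps18b and Mrps27, were lower in both states as deposited and under the 3 other scalings, as were 2.25% of all genes. Across the 78 members the naive and primed differences had a Pearson r of 0.63 and a Spearman rho of 0.55 as deposited, and 0.65 and 0.57 after quantile normalization. The same r over all genes tested was 0.34 and 0.39. Those genes reach lower levels than the members, and no r was taken over genes of like level. These correlations are across genes, which are not independent replicates, and the naive and primed comparisons share no library.

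**Figure D3:**
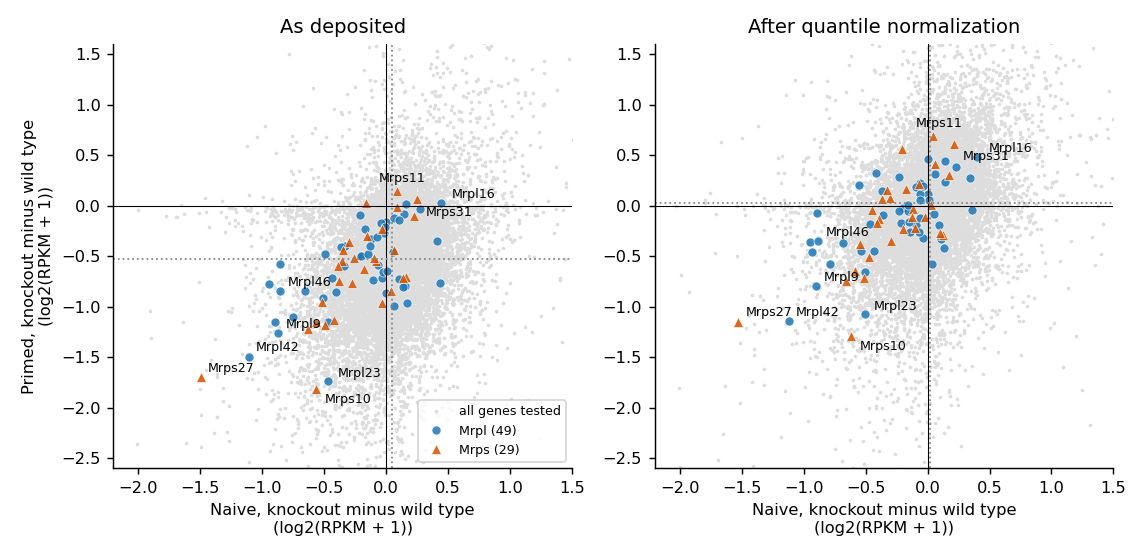
Log2 difference in the naive state (x axis) against that in the primed state (y axis), as deposited (left) and after quantile normalization (right), for the 49 Mrpl genes (circles), the 29 Mrps genes (triangles) and all genes tested (grey, cropped to the range shown); dotted lines are medians of all genes. Mrps27 and Mrpl42 sit at the lower left in both panels, while the primed differences of Mrps11, Mrpl16 and Mrps31 are larger in the right panel.

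Among small-subunit genes, Mrps27, which codes for an RNA-binding protein with pentatricopeptide repeats, differed most in the naive state, and Mrps10 in the primed state. It stood at 9.09 and 9.16 RPKM in naive libraries labelled knockout, against 30.0 and 25.4 RPKM in naive wild type, and at 11.8 and 11.3 RPKM in primed knockout, against 37.4 and 42.5 RPKM in primed wild type. The groups were far apart in both states, with log2 differences of -1.50 ± 0.16 and -1.70 ± 0.16 (limma, Benjamini-Hochberg adjusted p = 1.2e-17 and 5.9e-24). Mrps10, a protein of the small subunit's head, stood at 15.5 and 14.6 against 24.4 and 21.2 RPKM in the naive state and at 12.2 and 11.2 against 38.1 and 49.9 RPKM in the primed state. Its log2 difference was -0.57 in naive and -1.82 in primed cells (limma adjusted p = 0.00405 and 1.35e-29), and the naive call ended without either naive library labelled knockout or naive wild-type replicate 1 (adjusted p = 0.115, 0.228 and 0.0882). Mrps5, a protein near the decoding site whose bacterial homologue bears on the accuracy of translation, stood at 25.4 and 26.5 against 42.1 and 39.6 RPKM in naive cells and 22.6 and 21.1 against 47.8 and 57.1 RPKM in primed cells. For all 3 genes the values of both libraries labelled knockout lay below both wild-type values in each state.

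The paralogs Mrps18a, Mrps18b and Mrps18c fell in both states, with log2 differences of -0.49, -0.57 and -0.36 in the naive and of -1.18, -1.15 and -0.55 in the primed state, the last of which turned to 0.14 with library medians set equal. The naive calls of Mrps18a, Mrps18b and Mrps18c each ended without either naive library labelled knockout, with limma adjusted p up to 0.212, 0.0938 and 0.418. That of Mrps18c also ended without any naive wild-type or primed knockout library (adjusted p of 0.0569 to 0.126). Mrps12, the homologue of the bacterial decoding protein S12, showed no naive call as deposited (-0.15, limma adjusted p = 0.496) and a primed difference of -0.30 that was 0.16 after quantile normalization. Mrps6 stood at 20.1 and 19.3 against 23.6 and 20.7 RPKM in naive cells and 29.7 and 27.8 against 26.5 and 30.2 RPKM in primed cells, with overlapping groups in the primed state and no call in either as deposited. After quantile normalization it was called lower in naive (-0.21, limma adjusted p = 0.0047) and higher in primed cells (0.56, adjusted p = 9.64e-06). Mrps36, the member that is no ribosomal protein in the current view, had overlapping naive groups (7.4 and 8.83 against 10.4 and 6.53 RPKM) and lower primed values in knockout (4.2 and 5.2 against 9.55 and 10.7 RPKM). Its primed call ended under each other scaling, with a limma adjusted p of 0.194 after quantile normalization, and it has 3 named pseudogenes that could share its reads. Mrps30 was not called in naive cells as deposited (-0.26) and was at -0.52 in primed cells, where quantile normalization gave 0.08.

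Among large-subunit genes, Mrpl42 showed the widest gap at a high level. Its values were 54.5 and 49.4 RPKM in naive libraries labelled knockout, against 113 and 113 RPKM in naive wild type, and 37.4 and 36.7 RPKM in primed knockout, against 99.8 and 113 RPKM in primed wild type. It fell by 1.11 in the naive and by 1.49 in the primed state on the log2 scale (limma, Benjamini-Hochberg adjusted p = 6.75e-25 and 5.2e-47). It was among the most abundant members of the naive state, and its groups were apart in both states. Mrpl9, the homologue of a bacterial protein that reaches out from the large subunit, stood at 18.1 and 18.4 against 35.0 and 33.3 RPKM in naive cells and at 22.8 and 21.4 against 48.7 and 60.6 RPKM in primed cells. Mrpl32, whose maturation by the m-AAA protease gates ribosome assembly in mouse mitochondria, stood at 16.7 and 17.7 against 32.6 and 26.8 RPKM in naive and 16.9 and 16.8 against 33.5 and 41.7 RPKM in primed cells. In both genes, too, the groups were apart in each state.

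Mrpl35, with 7.92 and 8.1 against 16.4 and 15.0 RPKM in naive and 5.75 and 5.6 against 12.2 and 15.7 RPKM in primed cells, fell in both states, but its naive call ended without either naive library labelled knockout (limma adjusted p = 0.0874 and 0.0732). Mrpl18, Mrpl46 and Mrpl50 were among the largest falls of the naive state. Mrpl18, a protein of the central protuberance, stood at 42.8 and 43.2 against 80.1 and 87.4 RPKM in naive cells, a log2 difference of -0.94, and its primed difference of -0.77 was -0.36 after quantile normalization and -0.08, not passing, with library medians set equal. Mrpl50 stood at 15.9 and 17.1 against 32.3 and 29.2 RPKM in naive cells, a difference of -0.86, and its primed difference of -0.58 was -0.07 after quantile normalization and 0.12 with library medians set equal, where it did not pass. For Mrpl46, with 19.6 and 19.6 against 36.5 and 36.0 RPKM in naive and 22.3 and 20.3 against 34.7 and 44.1 RPKM in primed cells, both differences were -0.85 as deposited, and the primed one did not pass with library medians set equal (-0.15, limma adjusted p = 0.227). Mrpl45, which in human mitochondria anchors the ribosome to the inner membrane at the exit tunnel, fell by 0.47 and 1.15 on the log2 scale and kept both calls under the 3 other scalings. Its naive call ended without either naive library labelled knockout or naive wild-type replicate 1 (limma adjusted p = 0.213, 0.147 and 0.0756).

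**Figure D4:**
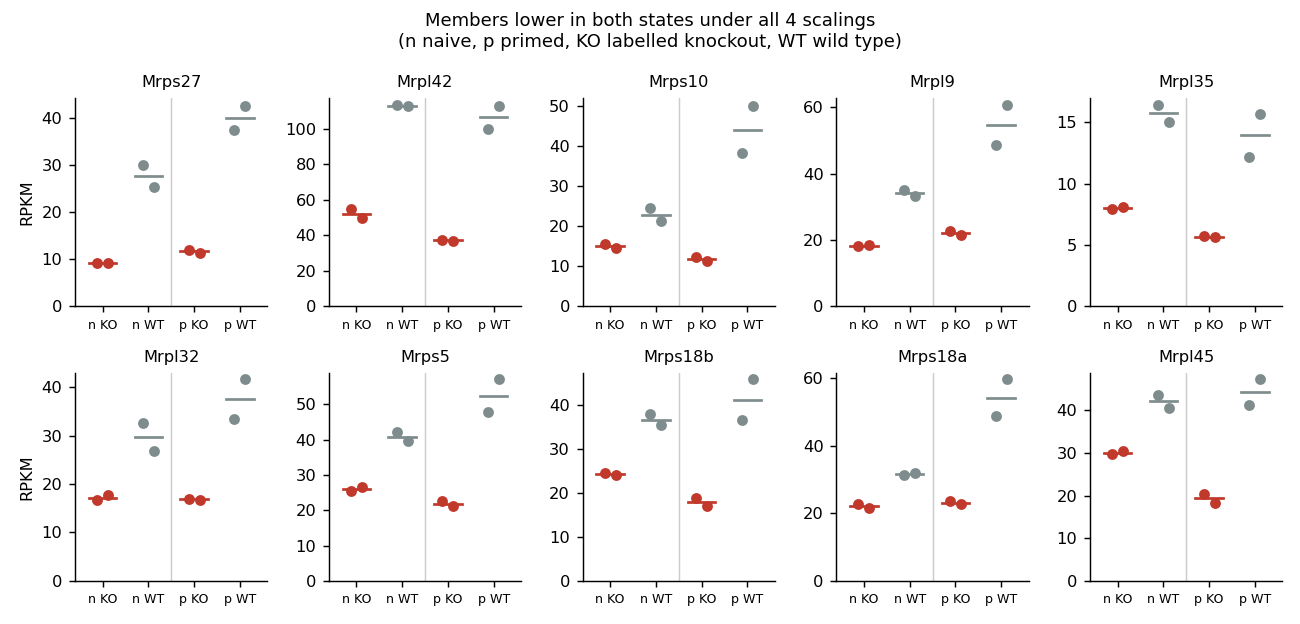
RPKM in each library (points) with group means (lines) for the 10 members lower in both states under all 4 scalings; n and p stand for naive and primed, KO for libraries labelled knockout, WT for wild type, and each panel has its own axis from 0. In each of the 10 panels both points labelled knockout lie below both wild-type points in each state.

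Mrpl16, the only member that rose in the naive state as deposited, codes for a protein close to the peptidyl transferase centre. It stood at 44.4 and 43.1 RPKM in naive libraries labelled knockout, against 34.2 and 29.9 RPKM in naive wild type, a log2 difference of 0.44 ± 0.12 (limma, Benjamini-Hochberg adjusted p = 0.00416). The call ended without either naive library labelled knockout or without naive wild-type replicate 2 (limma adjusted p = 0.227, 0.144 and 0.142), and the primed groups overlapped (41.4 and 40.4 against 36.7 and 44.2 RPKM). Mrpl3, another protein near that centre, had naive values of 47.6 and 52.8 against 41.7 and 41.1 RPKM and a difference of 0.27 that did not pass as deposited (limma adjusted p = 0.0987). Mrpl41 and Mrpl48 had naive differences of 0.44 and 0.41 that did not pass as deposited either, and Mrpl48 has a named pseudogene. After quantile normalization Mrpl3, Mrpl16, Mrpl30, Mrpl48, Mrps21 and Mrps31 were the 6 members higher in both states.

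The stalk proteins Mrpl10 and Mrpl12, which recruit translation factors, had small differences. Mrpl12, the most abundant member in the primed state, stood at 90.7 and 90.1 against 96.3 and 108 RPKM in naive cells and 124 and 116 against 132 and 151 RPKM in primed cells, with a primed difference of -0.24 that turned to 0.46 with the library medians set equal. Mrpl10 stood at 52.5 and 49.6 against 52.3 and 50.6 RPKM in naive cells and passed in neither state as deposited. Mrpl52 and Mrpl13, also among the most abundant members, had naive groups that overlapped. Among the least abundant, Mrpl1 passed in neither state as deposited and was called lower in naive (-0.41) and higher in primed cells (0.33) after quantile normalization, and Mrps33 stood at 5.54 and 5.4 against 9.74 and 11.5 RPKM in primed cells, a call that ended under each other scaling. Mrpl23, a protein at the rim of the exit tunnel, stood at 4.35 and 3.98 against 6.79 and 5.53 RPKM in naive cells and at 6.01 and 5.16 against 20.3 and 21.4 RPKM in primed cells. The naive groups did not overlap but the difference did not pass as deposited (-0.47, limma adjusted p = 0.226; -0.50 and 0.00318 after quantile normalization), and the primed one, -1.73 as deposited and -1.07 after quantile normalization, did. Its reads can be shared with 1 named pseudogene.

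The difference between the primed and the naive effect was lower at 34 members and higher at none, where 47.4% of all genes were lower and 2.16% higher. Its median was -0.32 over the members and -0.59 over all genes. The sign depended on the scaling: with library medians set equal 4 members were lower (17.1% of all genes) and 32 higher (29.2%), after quantile normalization 13 (30.5%) and 33 (33.9%), and after loess normalization 13 (30.6%) and 33 (32.7%). At Mrps10 and Mrpl23 the primed fall was the larger one as deposited and after quantile normalization, by 1.25 and 1.27 and by 0.67 and 0.57 on the log2 scale (limma adjusted p = 2.8e-07 and 0.000999, then 8.3e-05 and 0.00875). Both are among the members named for the most negative differences of effects past the threshold, so their calls as deposited follow from that choice. At Mrpl50 the difference of effects was 0.28 as deposited (limma adjusted p = 0.226) and 0.82 after quantile normalization (adjusted p = 2.6e-05), where the naive fall was the larger one.

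In the GENCODE annotation, 25 of the 78 members (32.1%) lie head to head with another gene: they have the start of a protein-coding gene on the opposite strand within 1000 bases, against 13.4% of the 12470 genes tested that have an annotated coding start. The share was 11 of 21 (52.4%) among members lower in both states and 14 of 57 (24.6%) among the others. The 25 members form 24 pairs, since Mrpl46 and Mrps11 are each other's neighbour. Between their RefSeq starts lie 41 bases, printed on the strand of Mrpl46 with a GC box in capitals.
Mrpl46 to Mrps11 (chr7:78783090-78783130, minus strand): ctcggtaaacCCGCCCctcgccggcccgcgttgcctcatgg

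Of the genes on either side of this interval, Mrpl46 fell in both states and Mrps11 was called in neither as deposited. The AAGATGGCG counted for Mrps11 lies on the strand of Mrpl46, after the Mrpl46 start. Its part in the level of either gene was not tested. Mrps11 stood at 30.2 and 28.1 RPKM in naive libraries labelled knockout, against 27.5 and 27.3 RPKM in naive wild type, and at 30.3 and 28.4 RPKM in primed knockout, against 23.6 and 29.6 RPKM in primed wild type. Its differences of 0.09 and 0.15 did not pass, and the primed one was 0.69 after quantile normalization (limma adjusted p = 3.1e-06). The log2 ratio of Mrpl46 to Mrps11, which no scaling of a library by a constant can change, was -0.63 and -0.52 in naive libraries labelled knockout, against 0.41 and 0.40 in naive wild type, and -0.44 and -0.49 in primed knockout, against 0.56 and 0.58 in primed wild type. All 4 ratios of libraries labelled knockout were below 0 and all 4 wild-type ratios above it.

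In 14 of the 24 pairs the member was lower relative to its neighbour in both states without overlap of the groups, and in 2 it was higher in both. These 16 pairs are 66.7% of 24, and 38.1% of the 761 divergent pairs with both genes tested shifted the same way in both states. The ratio was lower in both states in 8 of the 11 pairs whose member fell in both, where the choice of the member favours this, and in 6 of the other 13. Of those 11 neighbours 1, Ptcd2 beside Mrps27, fell in the naive state (5.85% of all genes tested). In the primed state 6 of them fell as deposited (59.3% of all genes). After quantile normalization 2 were lower (34.6%) and 6 higher (39.4%) there. The ratios were not tested. Mrpl18 shifted against the chaperonin gene Tcp1, which stood at 216 and 221 against 209 and 238 RPKM in naive cells, by -0.93 in the naive and -0.63 in the primed state. Mrps18b shifted against the phosphatase regulator Ppp1r10 by -0.77 and -1.41, and Mrpl32 against the proteasome gene Psma2 by -0.59 and -1.16. Mrpl40 shifted against the histone chaperone gene Hira by -0.74 and -0.56. The ratios of Mrps5 and Mrpl50 to the zinc-finger genes Zfp661 and Zfp189, and of Mrpl30 to Mitd1, shifted opposite ways in the 2 states. They were lower than in wild type in naive libraries labelled knockout and higher than in wild type in primed knockout libraries. These 3 are 12.5% of the 24 pairs, and 15.1% of the 761 divergent pairs shifted opposite ways without overlap. Reads of neighbours that overlap cannot be told apart where strand was not used in counting, which the sources used here do not give, and 22 members have an exon that overlaps a gene on the opposite strand, among them Mrpl18 with Tcp1, and 5 an exon that overlaps one on the same strand.

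**Figure D5:**
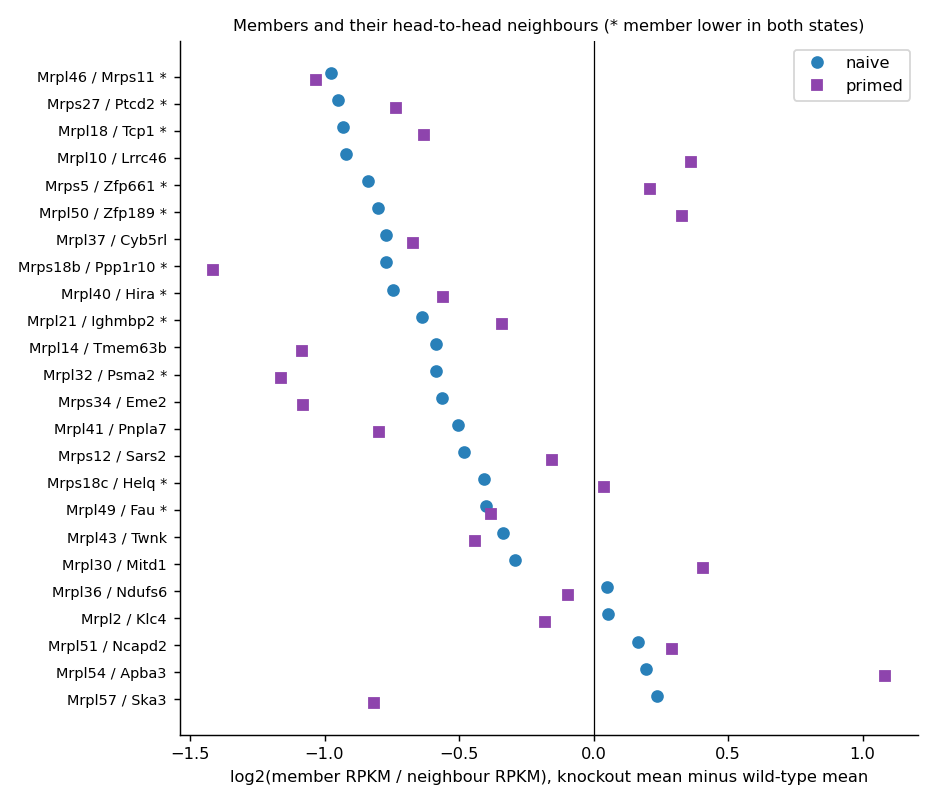
Change in the log2 ratio of each member to its head-to-head neighbour, mean of the 2 libraries labelled knockout minus mean of the 2 wild-type libraries, in naive (circles) and primed (squares) cells; an asterisk marks members that fell in both states. The ratio of Mrpl46 to Mrps11 moved by -0.98 in naive and -1.03 in primed cells.

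Of the 6 members with AAGATGGCG after the start within the promoter window, Mrpl35, Mrpl42, Mrps18a, Mrps24 and Mrps27 fell in both states as deposited. Mrpl37 was not called in naive cells as deposited (-0.13) and fell in primed cells as deposited (-0.40), where it was 0.01 after quantile normalization and the call also ended without primed knockout replicate 2 (limma adjusted p = 0.0591). The naive call of Mrps24 ended without either naive library labelled knockout or naive wild-type replicate 1 (limma adjusted p = 0.197, 0.245 and 0.0576). These letters were in 194 of 27025 promoters (0.718%). Among the 10045 genes tested that have a promoter by symbol, 74.8% of the genes tested and so not all of them, 179 held the letters, and 42 of these (23.5%) fell in both states, against 462 (4.6%) of the 10045. After quantile normalization 95 of the 179 (53.1%) were lower in both states, against 1636 (16.3%). Leaving out the 6 members, 37 of 173 genes (21.4%) fell in both states. No test was made of these shares. The NRF1 letters were in 3 of 19 promoters of members lower in both states (15.8%) and 10 of 50 of the others (20.0%), and the ETS letters in 6 (31.6%) and 19 (38.0%).

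The members were also split into 48 with a homologue in bacterial ribosomes and 28 specific to mitochondria. In the naive state 12 of 48 and 9 of 28 fell, with medians of -0.15 and -0.17, and in the primed state 34 of 48 and 23 of 28 fell, with medians of -0.57 and -0.58, where 5.85% of all genes fell in the naive and 59.3% in the primed state. After quantile normalization 25 and 11 were lower and 15 and 6 higher in the primed state. Mrps36 and Mrpl58, a peptide release factor built into the ribosome, were put in neither list.

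Of 5 mitochondrial ribosomal proteins with other symbols, Gadd45gip1 fell in both states. It stood at 12.1 and 11.2 RPKM in naive libraries labelled knockout, against 26.1 and 23.6 RPKM in naive wild type, and at 8.53 and 8.34 RPKM in primed knockout, against 28.9 and 35.9 RPKM in primed wild type (log2 differences -1.03 and -1.82, limma, Benjamini-Hochberg adjusted p = 8.7e-08 and 6.1e-25). Chchd1 and Dap3 fell in the primed state as deposited (-0.76 and -0.48), where Dap3 turned to 0.22 and Chchd1 did not pass (-0.07) with library medians set equal, and where the call of Dap3 ended without primed knockout replicate 2 (limma adjusted p = 0.0581). Aurkaip1 and Ptcd3 were called in neither state as deposited, whereas after quantile normalization all 5 were called in the primed state, 3 higher and 2 lower. Counts of other lists are read against the same shares of all genes as deposited, and after quantile normalization against 27.5% lower and 31.9% higher in naive and 34.6% lower and 39.4% higher in primed cells. Of 26 genes of mitoribosome assembly and ribosomal RNA modification, 2 fell and none rose in the naive state, namely the methyltransferase gene Mrm2 (-0.83) and the pseudouridine synthase gene Rpusd4 (-0.75), and 19 fell in the primed state, led by the GTPase gene Mtg1 (-1.57), Rpusd3 (-1.53) and the methyltransferase gene Tfb1m (-1.44). After quantile normalization 12 were lower and 4 higher in naive and 14 lower and 11 higher in primed cells. Of 14 mitochondrial translation factors none was called in the naive state and 9 fell in the primed state as deposited, led by Gfm2, a recycling factor (-1.08). After quantile normalization 6 were lower and 4 higher in naive cells, and in primed cells 4 were lower and 7 higher, at a median of 0.09. The medians of these 2 lists in the naive state as deposited, 0.03 and 0.02, were near that of all genes. Leaving out either naive library labelled knockout or naive wild-type replicate 1 ended the naive call of Mrm2, and leaving out naive replicate 2 labelled knockout that of Rpusd4 (limma adjusted p = 0.123).

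Of 20 genes of mitochondrial transcription and messenger RNA handling, the transfer RNA processing gene Elac2 rose in both states (0.46 and 0.54) and Hsd17b10, a subunit of the mitochondrial ribonuclease P, fell in both (-0.61 and -0.86), with 10 falls in all in the primed state as deposited. The direction of this list turned with the scaling, since 4 were lower and 13 higher in primed cells after quantile normalization, at a median of 0.18. Of 15 nuclear regulators, Gabpb2 rose (0.51) and Atf4 fell (-0.28) in the naive state. The naive calls of Elac2, Gabpb2 and Atf4 ended without either naive library labelled knockout, with limma adjusted p up to 0.202, 0.357 and 0.218, and without naive wild-type replicate 2. Median centring ended the naive call of Atf4 (adjusted p = 0.308) and the primed one of Hsd17b10 (-0.17). After quantile normalization 4 of the 15 were lower and 5 higher in the primed state. As deposited 11 fell there, led by 3 genes of the stress response to misfolded or missing proteins: Ddit3, at 9.16 and 8.35 against 105 and 122 RPKM, Atf5, at 11.7 and 9.95 against 97.4 and 120.0 RPKM, and Atf4, at 130 and 122 against 384 and 400.4 RPKM. Those primed knockout values were far below wild type (-3.55, -3.21 and -1.63), and their part in the members' levels was not tested.

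Cytosolic ribosomal protein genes, of which 37 of 84 fell and 3 rose in the naive state with a median of -0.19, and genes of the respiratory chain and ATP synthase, of which 27 of 88 fell and 7 rose with a median of -0.08, also had more falls than rises there. In the primed state 75 and 55 fell and 1 and 9 rose, with medians of -0.55 and -0.43. After quantile normalization 53 and 41 were lower and 14 and 32 higher there, with medians of -0.19 and -0.08. The naive share of members that fell, 21 of 78, thus lay beside 37 of 84 and 27 of 88 for these lists, and lower transcript levels from fewer cells of a kind or from less RNA per cell cannot be told apart in such bulk samples.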

How the data were processed

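Total RNA of 8 libraries, 2 in each of 4 groups taken from the sample titles, was analysed. The deposited files give 1 RPKM value per gene and library. The names cutadapt 1.9, STAR 2.5.2b, the counter featureCounts 1.5.1, the affy package and genome build mm9 appear, per the submitters' processing notes, with no parameter and no strand. The authors scaled the RPKM values further, within each state apart and by a method not given in the sources used here, so primed and naive levels were not tested against each other, and a shift of whole libraries moves every count of calls. Depth cannot be had from RPKM.

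Values deposited by the authors as RPKM were taken as log2(RPKM + 1). A gene was tested if 2 or more libraries held 1 RPKM or more, with limma 3.58.1 (R 4.3.3), 4 group means, an intensity trend in the variance and Benjamini-Hochberg adjustment over 13428 genes at 0.05. The fit as deposited gave this trend full weight, so a gene's SE and p-value rest on genes of like level and not on its own spread. The procedure was checked on simulated data. The simulated noise was set by level alone and held no library-wide shift, so the check does not cover gene-specific spread or the scaling. With 2 libraries against 2, an exact two-sided permutation test cannot go below 0.333. The members, lists, comparisons and alternatives were chosen with earlier results of these data known. Named genes follow a rule: Ino80, the 8 largest falls and rises per state without overlap (where under 4 rose, the 4 highest differences), the 4 most negative and most positive differences of effects, the 3 highest and lowest levels per state, members named for their role, and up to 3 called genes per direction of each other list. Of the other lists, not every gene that the rule admits is named. Mrps24, Mrpl30, Mrpl37, Mrpl40, Mrpl45, Mrpl58, Mrps21 and neighbours were named after their values were seen, as part of small counts. Alternatives were a pseudocount of 0.1, no filter or one of 5 RPKM, median centring, quantile and loess normalization, each state alone, no variance trend, a replicate block and leaving out each library. Neighbours come from GENCODE vM21 (GRCm38) by symbol, with no coordinates of the files converted. Plots used Python 3.11.15 with matplotlib 3.10.9.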

Additional observations from a re-analysis of the deposited data

Results flagged for a closer look

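For 12 named members limma found a primed effect that differed from the naive effect, by a test of the difference itself (Benjamini-Hochberg adjusted p under 0.05). In all 12 the primed effect was the lower one as deposited. The same difference over all genes tested had a median of -0.59, and 47.4% of all genes tested were called lower for it. Mrpl23, Mrps10, Mrpl41 and Mrpl57 were named for the most negative differences past this threshold, so their passing as deposited follows from that choice. The primed minus naive log2 effect was -1.27 for Mrpl23, -1.25 for Mrps10, -1.20 for Mrpl41, -1.13 for Mrpl57, -0.94 for Mrps36, -0.88 for Mrps33, -0.76 for Mrpl48, -0.69 for Mrps18a, -0.59 for both Mrps5 and Mrps18b, -0.42 for Mrpl16 and -0.39 for Mrpl42. After quantile normalization 5 still passed, at -0.57 for Mrpl23, -0.67 for Mrps10, -0.40 for Mrpl41, -0.44 for Mrpl57 and -0.21 for Mrps18a. Of all genes tested 30.5% were lower then. The other 7 did not pass then, at -0.12 for Mrps36, -0.10 for Mrps33, -0.07 for Mrpl48, -0.09 for Mrps5, -0.06 for Mrps18b, 0.08 for Mrpl16 and -0.03 for Mrpl42.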

How the results depend on the processing

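The pseudocount and the filters changed no count of called members by over 1.5 times. Median centring gave 3 naive members higher, 25 primed members higher and 13 lower at a median of 0.10. For the difference of effects it gave 32 higher and 4 lower at 0.43, and it ended that call for Ino80 (-0.16). Quantile normalization gave 8 higher and 41 lower in naive cells, 21 higher and 36 lower in primed cells at -0.10, and 33 higher and 13 lower for the difference at 0.11. Loess normalization gave 7 and 42, then 20 higher at -0.12, and 33 and 13 at 0.11, and called Ino80 lower in naive cells (-0.10). Fitting each state alone gave 4 naive members higher. Without a variance trend 0 rose and 10 fell in naive cells and 21 were lower for the difference. With the replicate number as a block these were 0, 11 and 19, and 11 fell in both states. Same-numbered deviations correlated at 0.31 in naive and -0.04 in primed cells, which with 2 numbers and no label that ties them does not show whether the libraries are paired.

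Leaving out 1 library at a time, 0 to 5 members rose and 9 to 30 fell in naive cells. In primed cells 0 to 2 rose, at medians of -0.71 to -0.46, and for the difference 0 to 2 were higher and 15 to 61 lower, at -0.45 to -0.20, with 61 without primed wild-type replicate 1. The log2 share difference in primed cells ran between -0.14 and -0.0869. The share difference was -0.22 in naive cells after quantile normalization and -0.23 after loess normalization, and 0.0374 in primed cells after the second, and the primed log2 Mrpl over Mrps ratio was 0.0183 and 0.0235 after them.

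Some primed directions turned. With median centring the log2 difference was 0.46 for Mrpl12, 0.53 for Mrpl13, 0.37 for Mrpl52, 0.29 for Mrpl1, 0.48 for Mrpl10, 0.66 for Mrpl3, 0.39 for Mrps12, 0.14 for Mrps18c and 0.18 for Mrps30. After quantile and loess normalization it was 0.114 and 0.0935 for Mrpl13, 0.33 and 0.32 for Mrpl1, 0.20 and 0.15 for Mrpl10, 0.38 and 0.31 for Mrpl3, 0.16 and 0.13 for Mrps12 and 0.0800 and 0.0470 for Mrps30. The cause was not tested. Leaving out a library leaves a lone one that is assumed to vary like the others. Unknown depth and 2 libraries a group limit low members most.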
